A study of Bos taurus with 8 samples.

Results

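The 8 h LPS and 4 h LPS scRNA-seq libraries were compared over all barcodes with at least 200 detected genes, that is 7973 barcodes at 4 h and 3857 at 8 h, of 30756 in the 4 scRNA-seq libraries of the series. A barcode stands for a droplet taken as a cell, and expression was read as unique molecular identifiers (UMIs), of which each counts 1 captured mRNA molecule. The blood came from 4 Holstein cattle, all female, 2 years old and lactating. It was pooled and divided into 4 parts, of which 1 got no LPS and 3 were kept with 2 µg/ml of it until 2 h, 4 h and 8 h, after which the peripheral blood mononuclear cells (PBMCs) were isolated. Whole blood was treated, so granulocytes and plasma were present during the treatment. The pool has no separate animals, and each time has 1 library. No p-value is therefore possible, "higher" and "lower" describe these libraries only, and library and time cannot be told apart. How long the part without LPS was incubated is not given in the sources used here.

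Lipopolysaccharide (LPS) is an outer membrane component of Gram-negative bacteria and is sensed by TLR4 with its coreceptor CD14, mainly on monocytes. The first genes to respond are targets of the transcription factor NF-kB, among them cytokines, chemokines and the inhibitors that end NF-kB activity. Cells that have sensed LPS can also secrete type I interferon, which binds a receptor found on nearly all nucleated cells and turns on the interferon-stimulated genes through transcription factors that include STAT2 and IRF9. Products of these genes include ISG15, a ubiquitin-like protein, the IFIT and OAS proteins that recognise or act on viral RNA, the MX proteins that block viral particles, and USP18, which takes ISG15 off its targets and dampens the interferon receptor.

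The 4 h library held 56449927 UMIs and the 8 h library 30901018, and the median barcode had 4937 and 5031 UMIs. Barcodes under 2000 UMIs were 8.7% of the barcodes at 4 h (95% exact binomial interval 8.09 to 9.34) and 24.2% at 8 h (22.8 to 25.6), and they held 1.38% and 3.46% of the UMIs. Barcodes with marker UMIs of more than 1 of the T, B and monocyte classes were 5.51% and 9.2%, and 9 barcode sequences occurred in both libraries. Intervals here and below cover counting error only. Levels are given as UMIs per 1000000 UMIs of the barcodes summed (CPM), and ratios as log2((CPM 8 h + 1)/(CPM 4 h + 1)). The interval given after a log2 ratio belongs to the ratio without the added 1, and so lies farther from 0 for genes of low level.

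**Figure D1:**
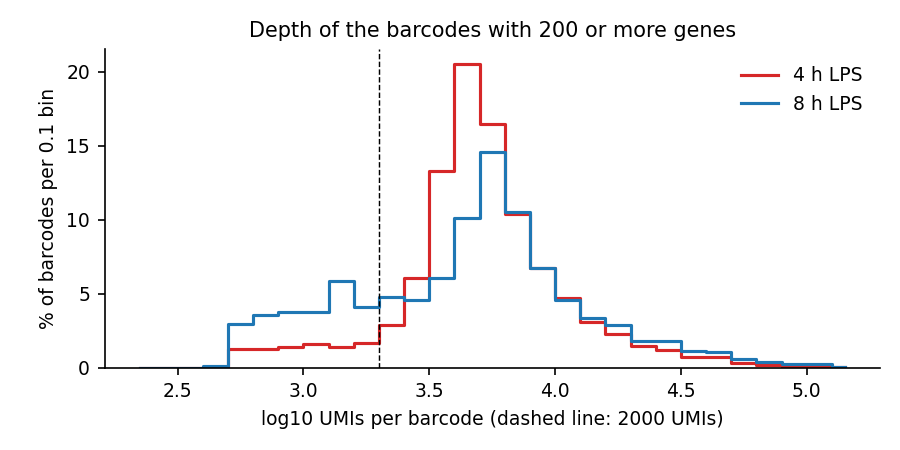
Distribution of UMIs per barcode in the 4 h and 8 h libraries. The x axis is log10 UMIs in bins of 0.1 and the y axis the percent of that library's barcodes. The 8 h library has a shoulder of barcodes left of the dashed line at 2000 UMIs, 24.2% against 8.7%.

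Cell classes were gated on raw UMIs. T cells needed at least 2 UMIs of CD3D, CD3E and CD3G, B cells 2 of a marker sum that included CD79A and MS4A1, and monocytes 2 of CD14 and CSF1R, each with at most 1 UMI of either other sum. NK cells needed NCR1, no CD3 UMI and at most 1 UMI of the B and monocyte sums. The T gate held 46.6% of the barcodes at 4 h (interval 45.5 to 47.7) and 39.8% at 8 h (38.3 to 41.4), the B gate 27.5% and 22.7%, the NK gate 1.14% and 0.985%, and the monocyte gate 1.88% (1.59 to 2.2) and 2.98% (2.47 to 3.57). The share in no gate was 22.9% at 4 h and 33.5% at 8 h. These shares moved with depth. Without barcodes under 2000 UMIs the T gate held 49.1% at 4 h and 49.2% at 8 h. With these remaining barcodes each thinned to 2000 UMIs and gated again on the thinned counts, it held 27.1% and 30.3%. The monocyte share was higher at 8 h in both of these settings, with 1.57% and 2.77% without the shallow barcodes, and 2.53% and 4.58% after thinning. With at least 3 marker UMIs it was 1.63% (interval 1.36 to 1.93) and 2.05% (1.62 to 2.55), so the intervals overlapped. The B share was lower at 8 h in the same settings, with 29.5% and 26.1%, and 22.6% and 19.4%. Markers that the gates did not use were highest in the gate of their own class. The summed level of 8 T cell markers was 1744 CPM in the T gate at 4 h and 1546 CPM at 8 h, that of 9 B cell markers 918 and 921 CPM in the B gate, and that of 10 monocyte markers 9425 and 15822 CPM in the monocyte gate. In the monocyte gate T cell markers summed to 900 and 1089 CPM and 7 NK cell markers to 1233 and 1666 CPM. The 7 NK cell markers were KLRF1, KLRD1, PRF1, GNLY, NKG7, TYROBP and FCGR3A. In the NK gate they summed to 2489 and 1785 CPM, and all 7 had a UMI at both times. In the monocyte gate KLRF1 had no UMI at 4 h, and KLRF1 and KLRD1 had none at 8 h. Only 1 T cell marker and 1 NK cell marker had enough UMIs in the monocyte gate to be tested for a ratio. Whether these sums come from lymphocyte transcripts was not tested.

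Over all barcodes, interferon-stimulated genes made up most of the largest decreases, and genes of monocytes most of the largest increases. Of 10341 genes with at least 100 UMIs over both libraries, 144 (1.39%) were at least 2-fold higher at 8 h and 63 (0.609%) at least 2-fold lower. Without barcodes under 2000 UMIs, 151 of 10265 (1.47%) were higher and 61 (0.594%) lower. The median log2 ratio over all tested genes was 0.03. With the study's limits of 200 to 3000 genes and under 20% mitochondrial UMIs, which left 7387 and 3411 barcodes, the count of higher genes was 59 in place of 144. Of the 63 lower genes, 28 belonged to a list of interferon-stimulated genes, which had 41 tested members. Of the 144 higher genes, 136 had their highest level at 8 h in barcodes dominated by monocyte markers (94.4%), which had at least 5 UMIs of CD14 and CSF1R and 3 times as many of these as of the T and B markers, against 1956 of all 10341 tested genes (18.9%). Within those barcodes 115 of the 136 were tested, and 36 were at least 2-fold higher at 8 h, with a median of 0.79, beside 71 of all 5347 genes tested there (1.33%).

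**Figure D2:**
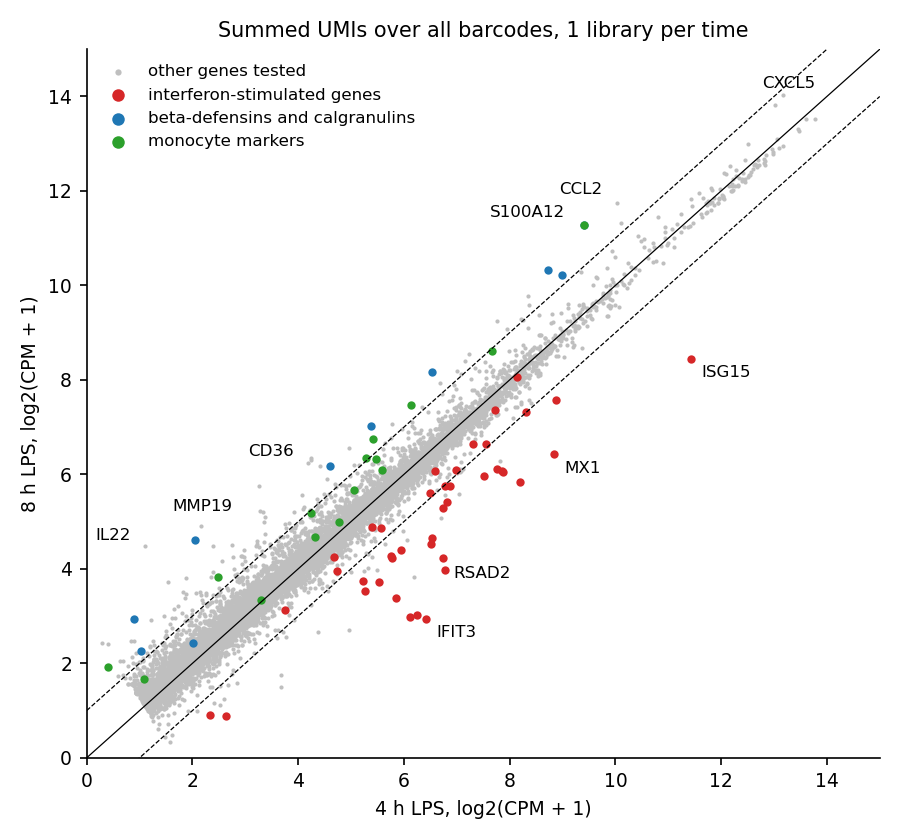
Level of each tested gene at 8 h (y axis) against 4 h (x axis), both as log2(CPM + 1) over all barcodes. The dashed lines mark 2-fold, and S100A12, which is on 2 of the lists, is drawn as a monocyte marker. The interferon-stimulated genes lie on or below the diagonal, and 9 of 10 tested beta-defensins and calgranulins lie above the upper dashed line.

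The interferon-stimulated genes were lower at 8 h as a group. All 41 tested members had a ratio below 0, 28 were at least 2-fold lower and 0 at least 2-fold higher, and their median was −1.49 beside 0.03 over all genes. IFIT3, whose product binds viral RNA together with IFIT1, had the largest decrease over all barcodes, from 84.3 CPM to 6.70 CPM (log2 −3.47, interval −3.86 to −3.45). IFIT1 went from 74.6 to 7.18 CPM (−3.21) and IFIT2 from 68.7 to 6.93 CPM (−3.14). ISG15 was the most abundant member, and it stood at 2769 CPM at 4 h and 349 CPM at 8 h (−2.99, interval −3.02 to −2.96). The oligoadenylate synthetase gene OAS1Y, which helps to activate the RNA-degrading RNase L, went from 108 to 14.8 CPM (−2.79). RSAD2, which encodes the antiviral enzyme viperin, went from 106 to 17.9 CPM (−2.50), and IFI44 from 56.8 to 9.48 CPM (−2.46). The GTPase genes MX1 and MX2 went from 454 to 85.5 CPM (−2.40) and from 294 to 56.2 CPM (−2.37). No single barcode carried these values: the barcode with most ISG15 UMIs held 0.526% of them at 4 h and 3.52% at 8 h.

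The sensors, regulators and effectors on the list differed in size. The genes of the cytosolic RNA sensors IFIH1 (MDA5), DDX58 (RIG-I) and DHX58 (LGP2) went from 235 to 65.5 CPM (−1.83), from 90.0 to 21.9 CPM (−1.99) and from 60.7 to 20.0 CPM (−1.55). IRF7, the transcription factor that amplifies interferon production, went from 217 to 68.6 CPM (−1.65). USP18, the brake on the interferon receptor, went from 181 to 61.1 CPM (−1.56), and HERC5, the ligase that attaches ISG15, from 230 to 65.8 CPM (−1.79). STAT2, which carries the signal from the interferon receptor, differed by less than 2-fold, with 41.3 and 28.4 CPM (−0.52).

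Set beside the other libraries over all barcodes, 4 h was the highest of the 4 for all 41 tested members. There 8 h stood above no LPS for 41 of 41 and above 2 h for 23 of 41. The ISG15 level was 172 CPM without LPS and reached 1091, 2769 and 349 CPM at the LPS times in order. MX1 was at 41.3, 127, 454 and 85.5 CPM in the same order. These comparisons share the 4 h library. For the 28 genes that were at least 2-fold lower at 8 h, the 8 h level kept a median of 10.8% of the difference between 4 h and no LPS, with a range from 1.62% to 20.1%. Choosing genes by their lower 8 h level limits this share from above, and the other tested members are not in it. The summed level of the list was 1647, 3175, 7873 and 2395 CPM from no LPS to 8 h. Within gates, 8 h stood above no LPS for 38 of 40 tested members in the T gate and 38 of 39 in the B gate. In the monocyte gate it did so for 14 of 19, and in the NK gate for 5 of 8.

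**Figure D3:**
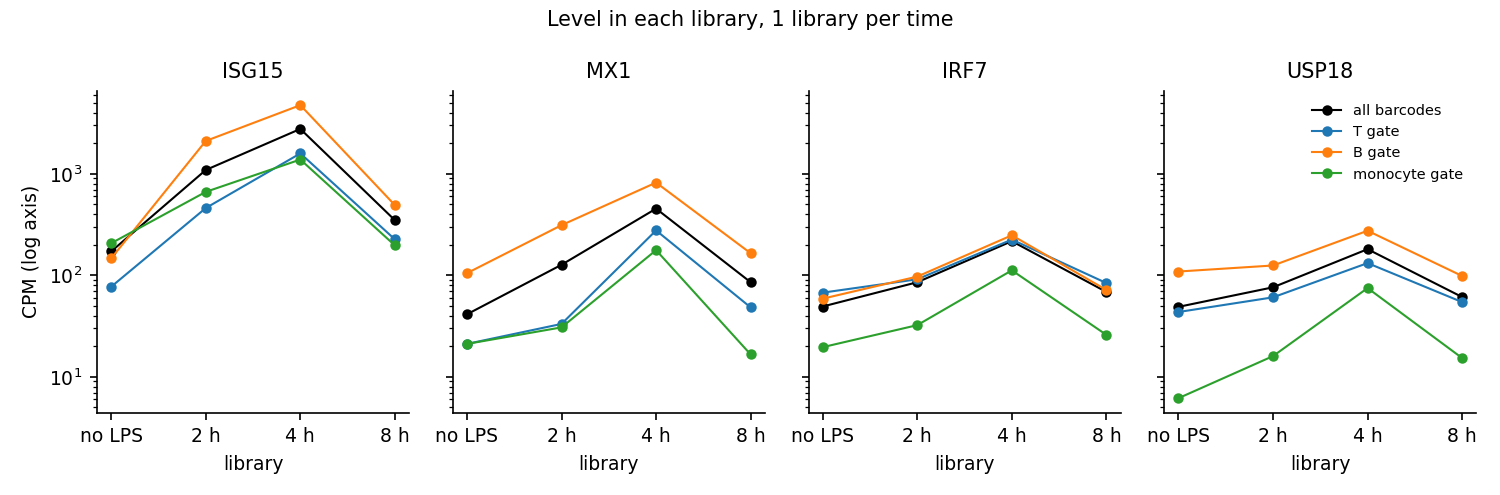
CPM (y axis, log scale) of ISG15, MX1, IRF7 and USP18 in the 4 libraries (x axis) over all barcodes and in the T, B and monocyte gates, 1 point per library. ISG15 peaks at 4 h in every set, with 4749 CPM in the B gate, and USP18 over all barcodes reaches 181 CPM at 4 h and stands at 61.1 CPM at 8 h.

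The same group was lower within each of the gates, where sums do not depend on the share of the class. In the B gate 31 of 39 tested members were at least 2-fold lower and the median was −1.75. Over all 7975 genes tested in that gate, 79 (0.991%) were at least 2-fold lower and 52 (0.652%) higher, with a median of 0.05. In the T gate 23 of 40 were at least 2-fold lower with a median of −1.13, beside 37 (0.436%) lower and 33 (0.389%) higher of 8477 genes. In the monocyte gate 14 of 19 were at least 2-fold lower with a median of −1.60, beside 90 (3.35%) lower and 58 (2.16%) higher of 2689 genes. In the NK gate 4 of 8 were at least 2-fold lower with a median of −0.98, beside 15 (1.7%) lower and 12 (1.36%) higher of 880 genes. No tested member was at least 2-fold higher in any of the 4 gates. In all of the T, B and monocyte gates 12 genes were at least 2-fold lower, and 10 of them were on the list: EIF2AK2, HERC5, IFIH1, IRF7, ISG15, MX1, MX2, OAS1Y, USP18 and ZNFX1. Of the 37 genes lower in the T gate, 28 were also lower in the B gate, which is 75.7% of the T gate genes and 35.4% of the B gate genes. Not all could be shared, since 32 of the 37 were tested in the B gate and 64 of the 79 in the T gate. In the monocyte gate 15 of the 37 and 28 of the 79 were tested.

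The gates differed in which members were highest. ISG15 at 4 h was at 4749 CPM in the B gate, 1589 CPM in the T gate, 1383 CPM in the monocyte gate and 917 CPM in the NK gate. At 8 h it was at 491, 226, 197 and 47.3 CPM in the same order. RSAD2 had the largest decrease in the B gate, from 76.8 to 2.68 CPM (−4.40), where its 8 h level rests on 20 UMIs. In the T gate RSAD2 went from 144 to 33.6 CPM (−2.07). MX1 went from 820 to 165 CPM in the B gate (−2.31), from 277 to 48.3 CPM in the T gate (−2.50), from 258 to 21.8 CPM in the NK gate (−3.50) and from 177 to 16.6 CPM in the monocyte gate (−3.34). IFI27 was at 93.5 and 71.0 CPM in the T gate, and at 1.56 and 1.88 CPM in the B gate.

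Single barcodes showed the same order. Among B gate barcodes of at least 2000 UMIs, the list took a median of 0.913% of a barcode's UMIs at 4 h and 0.298% at 8 h, beside 0.211% without LPS. The corresponding medians were 0.304%, 0.185% and 0.141% in the T gate, and 0.218%, 0.0882% and 0.0732% in the monocyte gate. The spread was wide at 4 h and narrow at 8 h. In the B gate the 5th and 95th percentiles were 0.162% and 3.5% at 4 h and 0.106% and 0.789% at 8 h, and in the T gate they were 0.0744% and 1.98%, and 0.0595% and 0.571%. With the barcodes of at least 2000 UMIs thinned to 2000, ISG15 was seen in 60.2% of them at 4 h and 26.8% at 8 h. Over all barcodes, not thinned, it was seen in 69% and 41.7%. MX1 was seen in 38.7% and 14.1% of the thinned barcodes, and in 52.2% and 25.1% of all barcodes, not thinned. None of the gates lacked these genes, so no class gives their background.

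**Figure D4:**
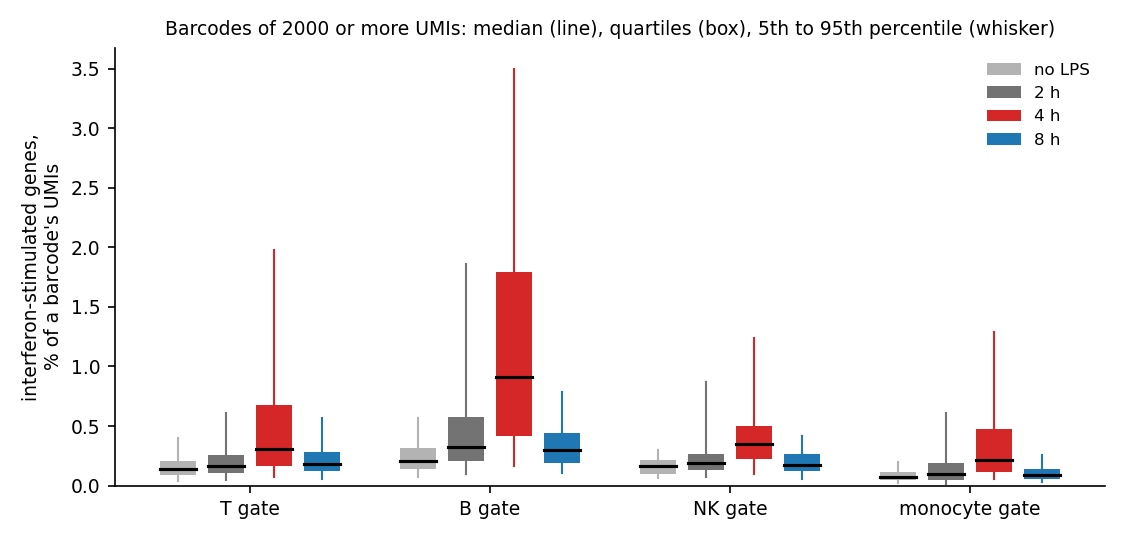
Percent of each barcode's UMIs that came from the interferon-stimulated genes (y axis) for barcodes of at least 2000 UMIs in each gate and library. Lines are medians, boxes quartiles and whiskers the 5th to 95th percentile over barcodes, which are not replicates. In the B gate the median is 0.913% at 4 h and 0.298% at 8 h.

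Genes that interferon gamma induces were slightly lower at 8 h over all barcodes. Of 16 tested, 13 had a ratio below 0, and the median was −0.17 (interval over genes −0.52 to −0.05) beside 0.03 over all genes. In the barcodes dominated by monocyte markers the median was −0.43, with 2 of 11 at least 2-fold lower. Over all barcodes 1 gene was at least 2-fold lower. That gene was CXCL10, a chemokine gene that type I interferon also induces, at 131 CPM at 4 h and 47.1 CPM at 8 h (−1.46), and in the B gate it was at 349 and 140 CPM (−1.31). IRF1 was at 250 and 230 CPM (−0.12), TAP1 at 362 and 293 CPM (−0.30) and the immunoproteasome gene PSMB8 at 923 and 871 CPM (−0.08). IFNG itself was low, with 5.08 and 1.36 CPM (−1.37).

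The 10 largest increases over all barcodes included the matrix metalloproteinase genes MMP19, MMP12 and MMP1, the beta-defensin genes DEFB10 and DEFB13 and the cytokine genes IL22 and CCL1. MMP19, a matrix metalloproteinase gene, went from 3.49 to 29.1 CPM (2.75, interval 2.84 to 3.29), MMP12 from 8.52 to 52.7 CPM (2.49) and MMP1 from 17.9 to 81.0 CPM (2.12). The secreted protease gene HTRA1 went from 4.23 to 21.5 CPM (2.10). CD36, a scavenger receptor of monocytes and macrophages, went from 17.9 to 77.6 CPM (2.05), and IL1R2, the decoy receptor that takes up IL-1, from 8.66 to 36.3 CPM (1.95). Of 10 tested beta-defensins and calgranulins, which are antimicrobial peptides and calcium-binding proteins of myeloid cells, 9 were at least 2-fold higher and 0 lower, with a median of 1.60. Of these, S100A12 went from 678 to 2490 CPM (1.88), S100A8 from 424 to 1276 CPM (1.59), S100A9 from 508 to 1197 CPM (1.23), TAP (tracheal antimicrobial peptide) from 91.8 to 285 CPM (1.62), DEFB7 from 40.6 to 130 CPM (1.66) and DEFB10 from 3.14 to 23.6 CPM (2.57). A single barcode held 47.0% of the DEFB10 UMIs at 8 h, and without the top barcode of each library its ratio was 1.88. LAP, the remaining member tested, was at 3.05 and 4.37 CPM (0.41). Within the monocyte gate 1 of 7 tested members was at least 2-fold higher with a median of 0.60, and in the barcodes dominated by monocyte markers 2 of 9 with a median of 0.87. Beta-defensin genes are close copies of each other, so their counts may be split between them.

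Without an upper limit on genes per barcode, monocyte transcripts took a larger part of the 8 h library. Barcodes dominated by monocyte markers held 8.84% of all UMIs at 4 h (214 barcodes) and 13.1% at 8 h (129 barcodes). With the study's limits on genes and mitochondrial UMIs they held 3.84% and 3.94% of the UMIs, and were 1.62% of the barcodes at 4 h and 1.32% at 8 h. The monocyte gate was higher at 8 h with the same limits. It was 1.75% of the barcodes at 4 h (interval 1.46 to 2.07) and 2.58% at 8 h (2.07 to 3.17), and held 3.04% and 4.12% of the UMIs. Over all barcodes the 10 monocyte markers summed to 1060 CPM at 4 h and 3271 CPM at 8 h. In sums over all barcodes, fewer cells of a type and less RNA per cell cannot be told apart. Of 15 tested monocyte markers, 6 were at least 2-fold higher and 0 lower, with a median of 0.93. They were CD68 (69.7 to 175 CPM, 1.32), CD163 (0.319 to 2.78 CPM, 1.52), FCGR1A (4.59 to 13.2 CPM, 1.35), VCAN (41.8 to 107 CPM, 1.33), FCN1 (37.8 to 80.9 CPM, 1.08) and S100A12. With the gated classes weighted as they were at 4 h, the count of higher genes was 50 in place of 144 and the median of the monocyte markers 0.47. The count of lower genes was then 65 in place of 63. The barcodes in no gate, with 28.3% of the UMIs at 4 h and 38.8% at 8 h, were weighted as 1 class. This class included barcodes dominated by monocyte markers that were outside the monocyte gate, and the mix within it was not held fixed. The monocyte gate held 3% and 4.88% of the UMIs.

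Within the monocyte gate itself, which compared 150 barcodes at 4 h with 115 at 8 h, part of these increases remained. IL1R2 went from 55.4 to 301 CPM (2.42, interval 2.12 to 2.78), MMP19 from 30.7 to 143 CPM (2.18), HTRA1 from 36.0 to 123 CPM (1.74), MMP1 from 203 to 508 CPM (1.32) and CD36 from 159 to 354 CPM (1.15). IL1R2 UMIs were uneven over barcodes, with 30.9% of them in 1 barcode at 4 h and 33.5% at 8 h, and the ratio without these was 2.36. ASAH1, a lysosomal ceramidase gene, went from 27.1 to 98.8 CPM (1.83) and the metallothionein gene MT1A from 76.1 to 345 CPM (2.17). CYBB, a subunit of the oxidase that makes superoxide, went from 37.1 to 85.6 CPM (1.18). CCL2, a chemokine that draws monocytes, was at 8022 and 14326 CPM (0.84), and S100A12 at 7118 and 12336 CPM (0.79), so both were higher by less than 2-fold in this gate. MMP12 was at 90.2 and 81.6 CPM (−0.14) there.

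The inflammatory cytokine and chemokine genes went the other way within the monocyte gate. Of 33 tested members, 4 were at least 2-fold lower and 0 higher, with a median of −0.44 beside 0.14 over all genes tested in the gate, and 28 of the 33 had a lower level at 8 h. IL1RN, the IL-1 receptor antagonist, went from 7706 to 2678 CPM (−1.52), the chemokine gene CCL20 from 1528 to 406 CPM (−1.91) and TNFAIP6 from 73.7 to 16.6 CPM (−2.09). Among the most abundant members, CXCL5 and IL1B differed little, and CXCL2 and CXCL8 were lower by less than 2-fold. CXCL5 was at 78290 and 72184 CPM (−0.12), CXCL2 at 52310 and 36620 CPM (−0.51), CXCL8 at 22533 and 11545 CPM (−0.96) and IL1B at 14966 and 13509 CPM (−0.15). CXCL5, CXCL2 and CXCL8 encode chemokines that attract neutrophils. Over the 4 libraries 21 of the 33 were highest at 2 h, 6 at 4 h and 0 at 8 h, and their median log2 ratio to no LPS was 1.47, 0.92 and 0.43 at the 3 LPS times in order. TNF was at 92.6 and 63.7 CPM (−0.53), IL6 at 1197 and 714 CPM (−0.75) and IL10 at 423 and 247 CPM (−0.78). In the barcodes dominated by monocyte markers, 2 of 33 tested members of the list were at least 2-fold higher and 4 lower. The median there was −0.33, and 27 of the 33 had a ratio below 0.

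The largest decreases in the monocyte gate included CD69, an early activation marker of lymphocytes, which went from 353 to 18.6 CPM (−4.18) and had a UMI in 64 of 150 barcodes at 4 h and 17 of 115 at 8 h. The sums of T and NK cell markers in this gate, given above, rest on few genes, and whether they follow lymphocyte content was not tested. SPP1 went from 104 to 1.33 CPM (−5.49, interval −9.35 to −4.41) and IL9 from 61.3 to 0.663 CPM (−5.23, interval −11.85 to −4.02), with 2 UMIs and 1 UMI at 8 h. A single barcode held 85.2% of the SPP1 UMIs at 4 h, and a single barcode 92.3% of the IL9 UMIs. The granulocyte genes CXCR1 and CSF3R went from 78.4 to 8.62 CPM (−3.04) and from 84.3 to 11.9 CPM (−2.72). The 6 neutrophil markers summed to 182 CPM in this gate at 4 h and 57 CPM at 8 h, with MMP8 at 0 in both. In the barcodes dominated by monocyte markers, the neutrophil markers summed to 75.7 and 52.2 CPM, CD69 went from 162 to 38.3 CPM (−2.05) and IL1RN from 4784 to 2192 CPM (−1.13). The part of other cells in these decreases was not tested.

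NF-kB subunits and their brakes had medians below 0 in the T, B and monocyte gates, with few of them at least 2-fold different. The median of the list was −0.30 in the T gate, −0.45 in the B gate and −0.57 in the monocyte gate, where 2 of 18 tested members were at least 2-fold lower and 2 higher. NFKBIA, the inhibitor that NF-kB itself induces, was at 645 and 419 CPM in the T gate (−0.62), 638 and 428 CPM in the B gate (−0.57) and 5379 and 2859 CPM in the monocyte gate (−0.91). NFKB2 went from 350 to 160 CPM (−1.13) and NFKBIZ from 200 to 94.9 CPM (−1.07) in the monocyte gate. The 2 members that were higher there encode proteins that mark mRNA for decay, ZFP36L1 (92.6 to 212 CPM, 1.19) and ZFP36L2 (31.8 to 87.6 CPM, 1.43). In the barcodes dominated by monocyte markers 0 of 21 tested members were at least 2-fold different, with a median of −0.31. Over all barcodes 0 of 21 members were 2-fold different in either direction, and the median was −0.18.

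**Figure D5:**
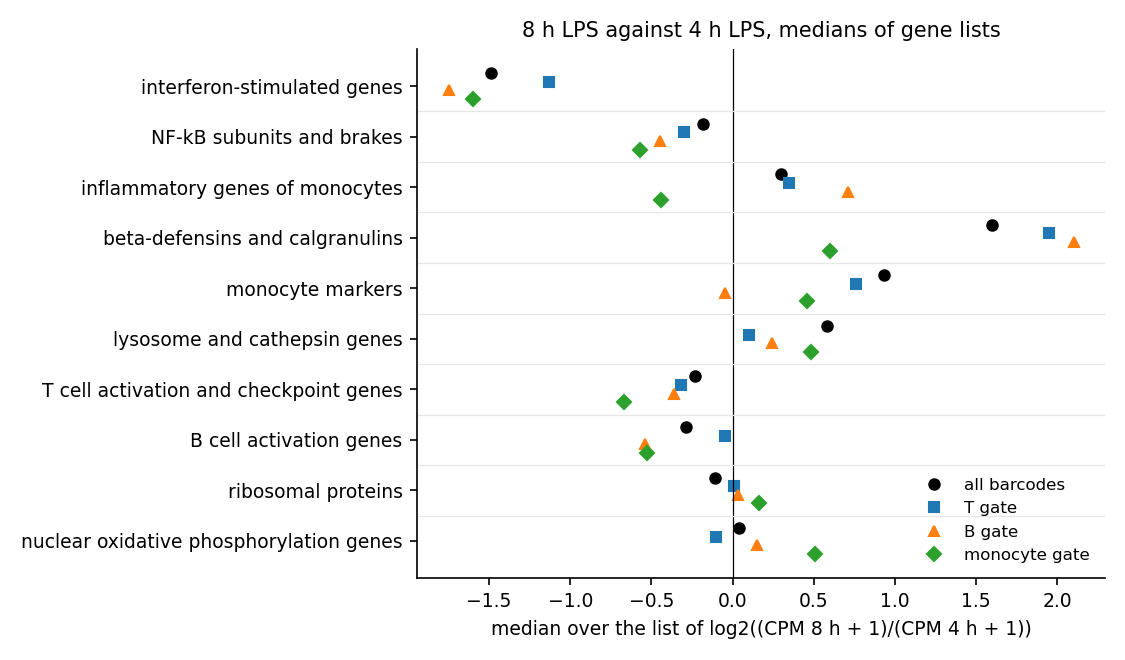
Median over each gene list of the log2 ratio of 8 h to 4 h (x axis), over all barcodes and in the T, B and monocyte gates. The interferon-stimulated genes lie between −1.75 and −1.13 in all 4 sets, while the inflammatory genes are at 0.35 in the T gate, 0.71 in the B gate and −0.44 in the monocyte gate.

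In the T gate the decreases beside the interferon-stimulated genes included genes of activated T cells. Of 20 tested activation and checkpoint genes, 3 were at least 2-fold lower and 0 higher, with a median of −0.32. TNFRSF4 (OX40), a costimulatory receptor, went from 123 to 52.3 CPM (−1.22), TNFRSF18 (GITR) from 225 to 99.6 CPM (−1.17) and the transcription factor gene BATF from 275 to 116 CPM (−1.24). IL2RA, the alpha chain of the IL-2 receptor, was at 190 and 122 CPM (−0.64). At 2 h, TNFRSF4, TNFRSF18 and BATF were at 113, 251 and 255 CPM, and without LPS at 42.8, 58.6 and 102 CPM. Genes of resting T cells had a median of 0.07 with 0 of 18 called. IL17A went from 8.25 to 2.89 CPM (−1.25) and IL17F from 26.9 to 67.8 CPM (1.30), and without the top barcode of each library IL17F was at −1.54. The IL17A UMIs came from 6 barcodes at 4 h and 3 at 8 h, with 51.7% and 64.3% of them in 1 barcode each.

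Subsets were gated within the T gate by CD4, by CD8 or by WC1, a surface family of gamma-delta T cells that are numerous in cattle. In CD4 T cells 63 of 6548 genes tested (0.962%) were at least 2-fold lower and 17 (0.26%) higher, and of the interferon-stimulated genes 23 of 39 were lower with a median of −1.25. In CD8 T cells 34 of 5030 (0.676%) were at least 2-fold lower and 24 (0.477%) higher, and of the interferon-stimulated genes 15 of 33 were lower. In WC1 T cells 27 of 938 (2.88%) were lower and 7 (0.746%) higher, and of the interferon-stimulated genes 8 of 11 were lower with a median of −1.20. TNFRSF4 went from 206 to 77.7 CPM (−1.40) and BATF from 335 to 127 CPM (−1.39) in CD4 T cells, and BATF from 138 to 67.7 CPM (−1.01) in CD8 T cells. IRF4, a transcription factor of activated lymphocytes, went from 34.6 to 14.4 CPM (−1.21) in CD4 T cells. CCR7, a receptor that guides cells into lymph nodes, went from 263 to 26.7 CPM in WC1 T cells, and 1 barcode held 76.1% of its UMIs at 4 h.

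In the B gate, genes that B cells raise on activation were lower in part. Of 19 tested, 2 were at least 2-fold lower and 0 higher, with a median of −0.54. BCL2A1, a survival gene under NF-kB, went from 1228 to 600 CPM (−1.03) and CD69 from 54.4 to 24.7 CPM (−1.11). CD83 and CD40, which take part in antigen presentation and T cell help, were at 636 and 335 CPM (−0.92) and at 223 and 120 CPM (−0.89). The calcitonin-related peptide gene CALCB, which had the largest decrease over all barcodes of the named genes off the interferon list, went from 86.6 to 12.5 CPM in the B gate (−2.70), where 90 barcodes had a UMI at 4 h and 22 at 8 h. MHC class II genes had a median of 0.03 with 0 of 8 called.

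Of the 33 genes at least 2-fold higher in the T gate, 28 (84.8%) had their highest level at 8 h in the barcodes dominated by monocyte markers. Of the 52 in the B gate 30 (57.7%) did. Among the 10341 genes tested over all barcodes the share was 18.9%, and it was not computed for the genes tested in each gate. The largest in the T gate were S100A12 (6.86 to 56.2 CPM, 2.86), SAA3 (5.79 to 33.2 CPM, 2.33), IL4I1 (2.41 to 16 CPM, 2.32), S100A8 (6.95 to 32.8 CPM, 2.09) and CXCL3 (21.2 to 89.3 CPM, 2.02). A single barcode held 65.8% of the IL4I1 UMIs at 8 h, and without the top barcodes its ratio was 1.25. In the B gate they were SAA3 (5.05 to 53.1 CPM, 3.16), S100A12 (10.3 to 90.7 CPM, 3.03), CCL8 (10.7 to 90.5 CPM, 2.97), RETN (3.78 to 28.6 CPM, 2.63) and SLC11A1 (2.16 to 18.1 CPM, 2.59). A single barcode held 75.8% of the CCL8 UMIs at 4 h and another 71% at 8 h, and without these the ratio was 2.93. The 10 monocyte markers summed to 116 and 170 CPM in the T gate and to 213 and 275 CPM in the B gate, against 9425 and 15822 CPM in the monocyte gate. The 15 inflammatory genes of at least 1000 CPM in the monocyte gate stood in the T gate at a median of 0.491% of their monocyte gate level at 4 h and 1.13% at 8 h, and in the B gate at 1.02% and 2.76%. With the barcodes of at least 2000 UMIs thinned to 2000 and gated again, S100A12 had a UMI in 1.37% of T gate barcodes at 4 h and 9.83% at 8 h. In the monocyte gate it had a UMI in 84.8% and 95.5% of these barcodes. The gates of all barcodes, not thinned, hold other sets of barcodes. There the shares were 3.61% and 21.3% in the T gate, and 72% and 89.6% in the monocyte gate. The part of free RNA and of mixed droplets in these increases was not tested.

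The NK gate held 91 barcodes at 4 h and 38 at 8 h, and its increases came from few of them. XCL1, a chemokine gene of NK cells, went from 51.9 to 480 CPM (3.18), or 2.66 without the top barcode of each library. CCL3 went from 154 to 989 CPM (2.68), of which 1 barcode held 60.3%, and was at 1.62 without the top barcodes. CCL1 had 0 UMIs at 4 h, where 3 UMIs would be 5.77 CPM, and 228 UMIs at 8 h (829 CPM), at least 144-fold higher against that limit. All 228 were in 1 barcode. Of the 12 genes at least 2-fold higher in this gate, 10 had at least 25% of their 8 h UMIs in 1 barcode. The decreases were led by ISG15 (917 to 47.3 CPM, −4.25), MX1 and the cell cycle gene STMN1 (183 to 21.8 CPM, −3.01), of which 1 barcode held most UMIs at 4 h. SNX8 and FYB1 went from 302 to 105 CPM and from 183 to 69.1 CPM (−1.51 and −1.39). IDO1, an enzyme of tryptophan breakdown, stayed high in this gate with 2850 and 2247 CPM (−0.34).

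Single barcodes also carried cytokine values over all barcodes. IL22, a cytokine gene of T cells and innate lymphocytes, had the largest ratio, from 1.15 to 21.4 CPM (3.38, interval 3.84 to 4.60). A single barcode held 76.7% of its UMIs at 8 h and another 58.5% at 4 h, and without both the ratio was 2.02. For CCL1 the ratio was 2.18, from 1.91 to 12.2 CPM, with 96.3% of the UMIs at 4 h and 60.6% at 8 h in 1 barcode each. Of the 144 genes at least 2-fold higher over all barcodes, 5 had at least 50% of their 8 h UMIs in 1 barcode, and of the 63 lower genes 3 at 4 h.

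Gene groups of general cell function differed little over all barcodes, and some differed more within gates. Of 81 ribosomal protein genes 0 were 2-fold different over all barcodes and the median was −0.11. The medians were 0.04 for 79 nuclear oxidative phosphorylation genes, −0.10 for 31 proteasome subunits, −0.05 for 20 heat shock and chaperone genes and −0.06 for 27 genes of the unfolded protein response, with 0 called in each. In the monocyte gate the oxidative phosphorylation median was 0.51, with 64 of 67 tested genes above 0 and 2 called. The heat shock median there was 0.51, that of the proteasome 0.30 and that of the unfolded protein response −0.33, beside 0.14 over all genes. In the T gate the proteasome median was −0.22, with 31 of 31 below 0. Lysosome and cathepsin genes had a median of 0.58 over all barcodes with 3 of 20 at least 2-fold higher, CTSB (150 to 371 CPM, 1.30), CD63 (127 to 290 CPM, 1.19) and CTSZ (295 to 622 CPM, 1.07), and a median of 0.48 with 0 of 16 called in the monocyte gate.

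Barcodes under 2000 UMIs, of which there were 694 at 4 h and 933 at 8 h, had larger differences between the libraries than the whole had. Of 2805 genes tested in them, 297 (10.6%) were at least 2-fold higher at 8 h and 354 (12.6%) lower. The median share of mitochondrial UMIs in these barcodes was 5.12% at 4 h and 1.94% at 8 h. Ribosomal protein genes had a median log2 ratio of 0.79 with 22 of 81 at least 2-fold higher, and nuclear oxidative phosphorylation genes a median of 0.89 with 27 of 72 higher. Immediate early genes, the first to respond to a stimulus, had a median of −1.15 with 10 of 17 at least 2-fold lower. The plasma cell genes JCHAIN and MZB1 went from 68.0 to 518 CPM (2.91) and from 7.69 to 135 CPM (3.96), and CCL2 from 248 to 4439 CPM (4.16). CXCR1, a chemokine receptor of granulocytes, went from 208 to 35.5 CPM (−2.51) and IL1RN from 10619 to 1817 CPM (−2.55). Neutrophil markers summed to 522 and 131 CPM, plasma cell markers to 146 and 781 CPM and monocyte markers to 872 and 2110 CPM. These genes were named after their values were seen.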

How the data were processed

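The authors treated pooled whole blood, isolated PBMCs and made 10x Genomics scRNA-seq libraries, and they aligned the reads and counted UMIs with Cell Ranger against ARS-UCD1.2 (bosTau9), per the submitters' processing notes. The deposited tables hold raw UMI counts per gene and barcode, not normalised, include barcodes beyond the study's own limits, and list 21861 genes. The scATAC-seq files were not used here. Here, barcodes with at least 200 genes were kept (7973 of 7977 at 4 h and 3857 of 3860 at 8 h), counts were summed over all barcodes or over each marker gate, and CPM and log2 ratios were computed with a pseudocount of 1. A gene was tested with at least 100 UMIs over both libraries and called at 2-fold. Cells are not replicates, and with 1 library per time no significance test was run. The 95% intervals of ratios and shares are exact (Clopper-Pearson).

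The groups were taken from the labels. The members and lists were chosen with earlier results of these data known. Named genes were the 10 largest ratios in each direction over all barcodes and over barcodes of at least 2000 UMIs (at least 200 UMIs and a gene symbol), the 5 largest per gate (at least 100 UMIs), list members at least 2-fold different, and up to 4 list members with most UMIs. Other named genes, among them regulators and cytokines, were chosen after their values were seen, as were the barcodes dominated by monocyte markers. Genes listed under an identifier only were counted and not named. Over each whole library, 3 UMIs are 0.0531 CPM at 4 h and 0.0971 CPM at 8 h. Doublets were not called. Barcodes with markers of more than 1 class were in none of the T, B, NK and monocyte gates. The barcodes dominated by monocyte markers could include such barcodes. Plasma cell markers summed to 1083 CPM in them at 4 h and 1127 CPM at 8 h, against 87.3 and 125 CPM in the monocyte gate. The calculations were checked on simulated counts. Alternatives varied the barcode limits, gates, pseudocount, UMI minimum and scaling (edgeR 4.0.16 TMM and DESeq2 1.42.0 size factors, used only as scale factors in R 4.3.3). Software was Python 3.11.15, numpy 2.4.6, scipy 1.17.1 and matplotlib 3.10.9. Promoter sequences were not used here. Of the study's barcode limits, those on genes and mitochondrial UMIs were tried, and its limits on UMI counts and on genes seen in few cells were not, so the barcodes left are more than the study kept. Some genes on the lists are not reported here by name.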

Additional observations from a re-analysis of the deposited data

Results flagged for a closer look

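The inflammatory cytokine and chemokine genes had ratios of 8 h to 4 h of opposite sign in different gates. Their median log2 ratio was 0.35 in the T gate and 0.71 in the B gate, and −0.44 in the monocyte gate, where these genes were most abundant. The interval of the T gate median over genes, −0.12 to 1.07, included 0. Subsets of the T gate differed in sign, with medians of −0.54 in CD4 T cells, 0.26 in CD8 T cells and 0.42 in WC1 T cells. In CD4 T cells 3 of 18 tested members were at least 2-fold higher and 4 lower. In the T and B gates 8 members were at least 2-fold higher in each and 0 lower, of 25 and 24 tested, and in the monocyte gate 0 were higher and 4 lower of 33. In the barcodes dominated by monocyte markers 2 were higher and 4 lower of 33, with a median of −0.33. The difference between the gates was not tested, since each gate has 1 library per time. The monocyte markers were also higher at 8 h in the T gate (116 and 170 CPM) and the B gate (213 and 275 CPM), and their part in the difference was not tested.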

How the results depend on the processing

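No paired analysis was possible because each time has 1 library and the labels share only replicate number 1. Over all barcodes the counts were 144 genes higher and 63 lower. The higher count was 59 with the study's limits on barcodes, 50 with gated classes weighted as at 4 h, 56 with a pseudocount of 5 CPM, 243 with 0.1 CPM and 92 with at least 500 UMIs, and the lower count was 39 with a pseudocount of 5 CPM. The split was 50 higher and 65 lower under class weighting, 121 and 71 with TMM and 120 and 71 with DESeq2 size factors. Class weighting did not hold the mix within the barcodes in no gate fixed. In the NK gate 8 genes in place of 15 were lower with the stricter gate (at least 2 NCR1 UMIs). The median of monocyte markers was 0.41 with the study's limits and 0.47 under class weighting, where that of inflammatory genes was −0.09 in place of 0.30. The median of T cell quiescence genes was 0.11 in place of −0.07 with the study's limits. CCL1 in the NK gate was at 0.00 without the top barcode.

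Shares of barcodes moved with depth and gate. Without barcodes under 2000 UMIs the T gate held 49.1% and 49.2%, the B gate 29.5% and 26.1%, and the monocyte gate 1.57% at 4 h. With at least 3 marker UMIs (2 for NK) the T gate held 37.9% and 34.0%, the B gate 25.4% and 18.8%, the NK gate 0.401% and 0.493%, and the monocyte gate 1.63% and 2.05%. With the study's limits the T gate held 48.6% and 43.0%, and the monocyte gate 1.75% and 2.58%. Thinning was done on the barcodes of at least 2000 UMIs, which were then gated again. After it the T gate held 27.1% and 30.3%, the B gate 22.6% and 19.4%, the NK gate 0.536% and 0.547%, and the monocyte gate 2.53% and 4.58%. The cause of these shifts was not tested. In the NK gate, with 91 and 38 barcodes, 880 genes reached 100 UMIs.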

Other observations

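Cytotoxic granule genes had a median log2 ratio of −0.43 over all barcodes, with 0 of 10 tested members at least 2-fold different, beside 0.03 over all genes. PRF1, which encodes the pore-forming perforin, was at 33.9 and 24.1 CPM (−0.47) and GNLY, a membrane-lysing peptide gene, at 155 and 127 CPM (−0.29). Glycolysis and hypoxia genes had a median of 0.31 with 0 of 29 called, and LDHA, the gene of a lactate dehydrogenase subunit, was at 178 and 221 CPM (0.31). In the T gate the glycolysis median was 0.05, in the B gate 0.19 and in the monocyte gate 0.10. In the barcodes dominated by monocyte markers, 8 of 18 cell cycle genes were at least 2-fold lower at 8 h with a median of −0.83, beside 0.20 for the 4 tested in the monocyte gate and 0.05 over all barcodes. Over all 5347 genes tested in those barcodes, 115 (2.15%) were at least 2-fold lower.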
